A study of Sus scrofa with 6 samples.

Results

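A set of 7 protein-coding genes of pig 8-cell embryos is described here, LGALS3, TRAF4, NDE1, TCP11, ENOX1, GRPEL2 and CACNA2D4, each of which was several times higher in 2 of 3 control libraries than in any of the other 4 libraries of the study. They were chosen by their levels in all 6 libraries: the lower of controls 1 and 2 had to reach 5 FPKM (fragments scaled to the length of the transcript and to the mapped fragments of the library) and 3 times the highest of knockdowns 1, 2 and 3 and control 3. Names that were numbers or dates, or that began with LOC, ZNF, TRNA or MIR, were left out. The rule kept 7 of 29874 genes, or 7 of the 3785 genes that passed the name filter and stood at 5 FPKM or above in both of these controls. Because these values chose the genes, their differences between libraries are a description and were given no test of their own.

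The study compared embryos given a cytoplasmic injection of siRNA, with the genotype label LncT KD (3 libraries), with embryos labelled as control (3 libraries), both at the 8-cell stage, by sequencing of mRNA. LncT is a long non-coding RNA by the title of the study, and the libraries of embryos given the siRNA are called knockdowns here; whether the level of LncT itself fell was not checked. The sources used here do not state what the control embryos were injected with, if anything, the number of embryos in a library or their age in hours. Nothing says that the libraries of a group came from separate collections, so the spread between them may be technical.

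Around this stage the embryo clears messages stored in the egg and starts to transcribe its own genome. The 7 genes belong to no single pathway. NDE1 works with dynein at the centrosome and spindle, TRAF4 and LGALS3 act in signalling and at cell surfaces, GRPEL2 serves protein import into mitochondria, ENOX1 encodes a redox enzyme of the cell surface, CACNA2D4 a calcium channel subunit, and TCP11 a protein known from sperm of the mouse. FPKM is a share of the fragments of a library, and in libraries of whole embryos fewer cells with a transcript and less of it per cell cannot be told apart.

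Control 3 stood apart from the other controls over the whole table. Over the 10417 genes that averaged 1 FPKM or more, its Spearman correlation was 0.900 to 0.941 with the knockdowns and 0.611 and 0.655 with controls 1 and 2, which correlated with each other at 0.922; genes are not independent replicates. Relative depth, as coverage per FPKM, was 6.29 to 9.41 in the knockdowns and 6.45 to 7.03 in the controls, and was highest in knockdown 2. Transcripts of the oocyte and egg (21 genes in the table) summed to 3229, 4062 and 3638 FPKM in knockdowns 1, 2 and 3, and to 7197, 6630 and 2527 FPKM in controls 1, 2 and 3. Not every gene of the list followed its sum. DPPA3 was at 287, 447 and 285 FPKM in the knockdowns and 413, 368 and 468 FPKM in the controls, and ZP4 at 219, 150 and 255 FPKM against 195, 172 and 116 FPKM. Genes of genome activation (12 in the table) summed to 915, 802 and 693 FPKM in the knockdowns and to 269, 439 and 719 FPKM in the controls. Most of the sum in controls 1 and 2 was DUXA, at 358, 299 and 267 FPKM in the knockdowns and 252, 303 and 287 FPKM in the controls. Single genes of the list differed from the sum. ARGFX was at 100, 71.6 and 91.6 FPKM against 0, 0.09 and 115 FPKM, and KLF5 at 3.35, 5.89 and 2.59 FPKM against 2.23, 3.25 and 3.05 FPKM. LEUTX was at 1.23 FPKM in control 1 and 87.3 FPKM in control 2. The part of either list in the values of the 7 genes was not tested. Markers of cumulus and granulosa cells (16 in the table) summed to 10.5 to 14.8 FPKM in the knockdowns and 11.6 to 12.0 FPKM in the controls. CYP11A1, INHA and FOXL2 were listed at 0 in every library, but others were present and differed. INHBA was at 4.34, 5.66 and 5.52 FPKM in knockdowns 1, 2 and 3 and 7.87, 6.28 and 4.80 FPKM in controls 1, 2 and 3. TNFAIP6 went the other way, at 1.59, 1.46 and 1.74 FPKM against 0.09, 0.35 and 0.54 FPKM. Markers of sperm (9 in the table) summed to at most 0.89 FPKM in a knockdown and 0.81 FPKM in a control, and 6 of them were listed at 0 throughout. Those of blood (4 in the table) summed to at most 0.81 FPKM in a knockdown and 0.18 FPKM in a control.

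**Figure D1:**
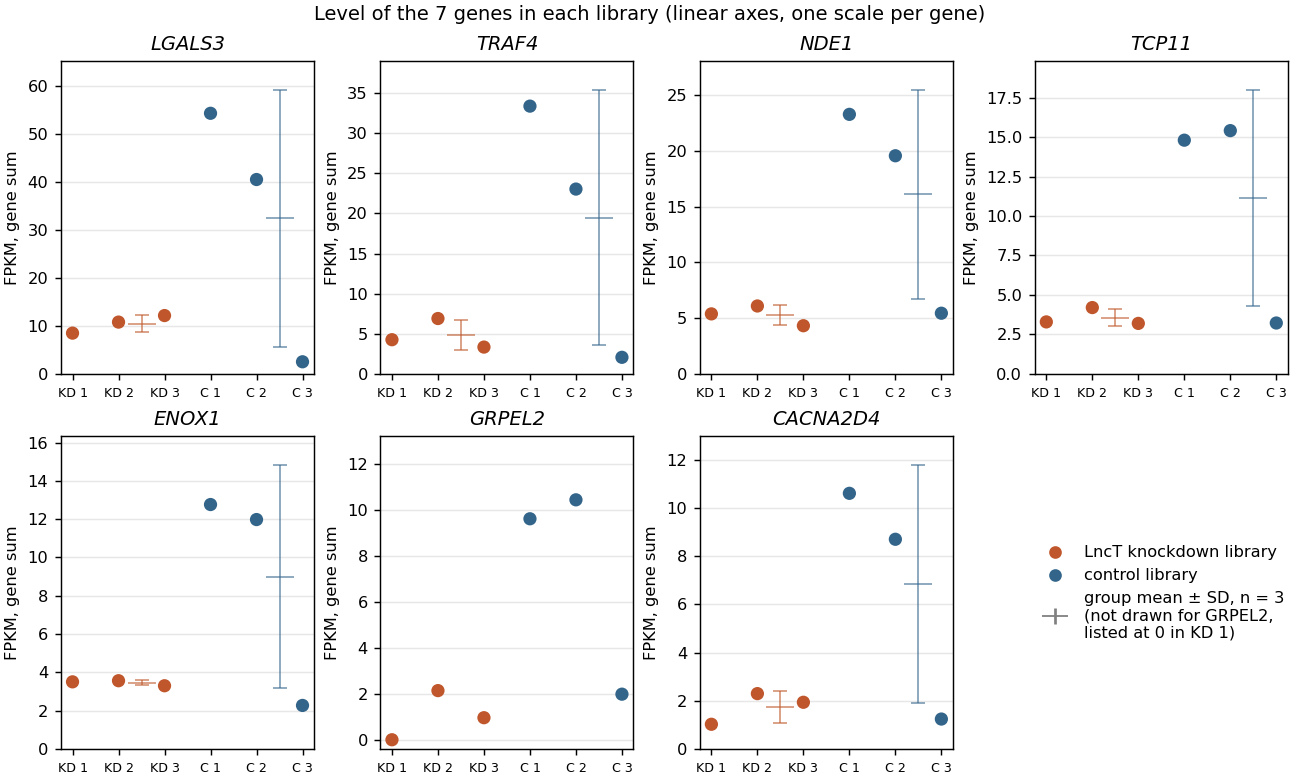
FPKM summed over transcripts (y axis, linear, one scale per gene) in the 3 knockdown and 3 control libraries (x axis) for each of the 7 genes; bars are the group mean and SD (n = 3), not drawn for GRPEL2. In each panel controls 1 and 2 lie above the other libraries, and control 3 lies among or below the knockdowns, so the SD of the controls is wide.

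LGALS3 encodes galectin-3, a lectin that binds beta-galactosides at the cell surface and is also found in the nucleus. It was the most abundant of the 7 in every library except control 3, where NDE1 and TCP11 were above it. It stood at 8.50, 10.8 and 12.2 FPKM in knockdowns 1, 2 and 3, and at 54.4, 40.6 and 2.52 FPKM in controls 1, 2 and 3. Control 3 was the lowest library by far, at 0.24 of the knockdown mean, so the lower of controls 1 and 2 was 3.33 times the highest knockdown but 16.1 times control 3. The group means were 10.5 ± 1.85 FPKM in knockdowns and 32.5 ± 26.9 FPKM in controls (SD, n = 3). In terms of rank, LGALS3 stood at percentile 75.4, 76.1 and 78.1 of the genes above 0 in the knockdowns, and at 93.2, 91.6 and 55.2 in the controls.

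TRAF4, an adaptor of the TNF receptor-associated factor family that is found at cell junctions and takes part in TGF-beta signalling, was at 4.26, 6.90 and 3.34 FPKM in knockdowns 1, 2 and 3. Its controls 1, 2 and 3 were at 33.4, 23.0 and 2.06 FPKM. Here too control 3 was the lowest of the 6 libraries, at 0.43 of the knockdown mean. Group means were 4.83 ± 1.85 FPKM in knockdowns and 19.5 ± 16.0 FPKM in controls (SD, n = 3). The lower of controls 1 and 2 was 3.34 times the highest knockdown and 11.2 times control 3, the widest such gap to control 3 after that of LGALS3.

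NDE1, which binds LIS1 and dynein and is needed for spindle and centrosome function, was at 5.39, 6.10 and 4.32 FPKM in knockdowns 1, 2 and 3 and at 23.3, 19.6 and 5.45 FPKM in controls 1, 2 and 3. The 4 low libraries were close together, between 4.32 and 6.10 FPKM, and control 3 was at 1.03 of the knockdown mean. With a ratio of 3.21 this gene lay nearest to the threshold of the rule. Its means were 5.27 ± 0.89 FPKM in knockdowns and 16.1 ± 9.42 FPKM in controls (SD, n = 3).

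TCP11, whose product acts in sperm function in the mouse, was at 3.29, 4.20 and 3.20 FPKM in knockdowns 1, 2 and 3, and at 14.8, 15.4 and 3.22 FPKM in controls 1, 2 and 3. Control 3 fell between knockdowns 1 and 3, and the 4 low libraries lay between 3.20 and 4.20 FPKM. Group means were 3.56 ± 0.55 FPKM in knockdowns and 11.1 ± 6.87 FPKM in controls (SD, n = 3). The sperm markers given above summed to 0.60, 0.89 and 0.39 FPKM in knockdowns 1, 2 and 3 and to 0, 0.32 and 0.81 FPKM in controls 1, 2 and 3. Whether sperm RNA has a part in the TCP11 values was not tested.

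ENOX1, an enzyme of the outer cell surface that oxidises NADH and exchanges thiols, was at 3.50, 3.56 and 3.30 FPKM in knockdowns 1, 2 and 3. In controls 1, 2 and 3 it was at 12.8, 12.0 and 2.27 FPKM. The knockdowns varied least of the 7 genes, with a mean of 3.46 ± 0.14 FPKM (SD, n = 3) against 9.01 ± 5.84 FPKM (SD, n = 3) in controls, and control 3 lay below each of them.

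GRPEL2, a nucleotide exchange factor for the HSP70 chaperone of the mitochondrial matrix, was listed at 0 in knockdown 1 and stood at 2.14 and 0.96 FPKM in knockdowns 2 and 3. Controls 1, 2 and 3 were at 9.62, 10.4 and 1.98 FPKM. The value of control 3 lay within the knockdown range. GRPEL2 had the highest ratio of the 7, with the lower of controls 1 and 2 at 4.50 times the highest other library. Since a listed 0 can stand for an estimate that failed, no group mean is given for this gene.

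CACNA2D4, the alpha-2-delta-4 subunit of voltage-gated calcium channels known from photoreceptors, was the weakest of the 7 in control 2. It was at 1.02, 2.30 and 1.94 FPKM in knockdowns 1, 2 and 3, and at 10.6, 8.70 and 1.24 FPKM in controls 1, 2 and 3. Control 3 lay within the knockdown range again, and the means were 1.75 ± 0.66 FPKM in knockdowns and 6.85 ± 4.95 FPKM in controls (SD, n = 3).

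Over the 7 genes, the level in controls 1 and 2 set the order LGALS3, TRAF4, NDE1, TCP11, ENOX1, GRPEL2, CACNA2D4, by the lower of the 2 libraries. Neighbours in that order were not always apart: GRPEL2 at 9.62 and 10.4 FPKM and CACNA2D4 at 10.6 and 8.70 FPKM overlapped in controls 1 and 2, as did TRAF4 and NDE1, at 33.4 and 23.0 against 23.3 and 19.6 FPKM. The ratio of control 1 to control 2 ran from 0.92 to 1.45. The 7 summed to 26.0, 36.0 and 29.2 FPKM in knockdowns 1, 2 and 3, and to 159, 130 and 18.7 FPKM in controls 1, 2 and 3. Behind these values stood a coverage, summed over transcripts, of 0 to 102 in the knockdowns, 8.00 to 35.1 in control 3 and 61.2 to 364 in controls 1 and 2.

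The rule set a bound on the highest of the 4 low libraries but did not set their order. Knockdown 2, the deepest library, was the highest of the 4 for 6 of the 7 genes (LGALS3 was highest in knockdown 3), where it was highest for 41.1% of the 3785 genes. Control 3 was below every knockdown for LGALS3, TRAF4 and ENOX1, 3 of 7, where this held for 40.1% of the 3785 genes. It was above every knockdown for 0 of 7, against 17.4%. The 3785 genes have no such bound on these libraries, so nothing is read from these shares. The part of depth was not tested.

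**Figure D2:**
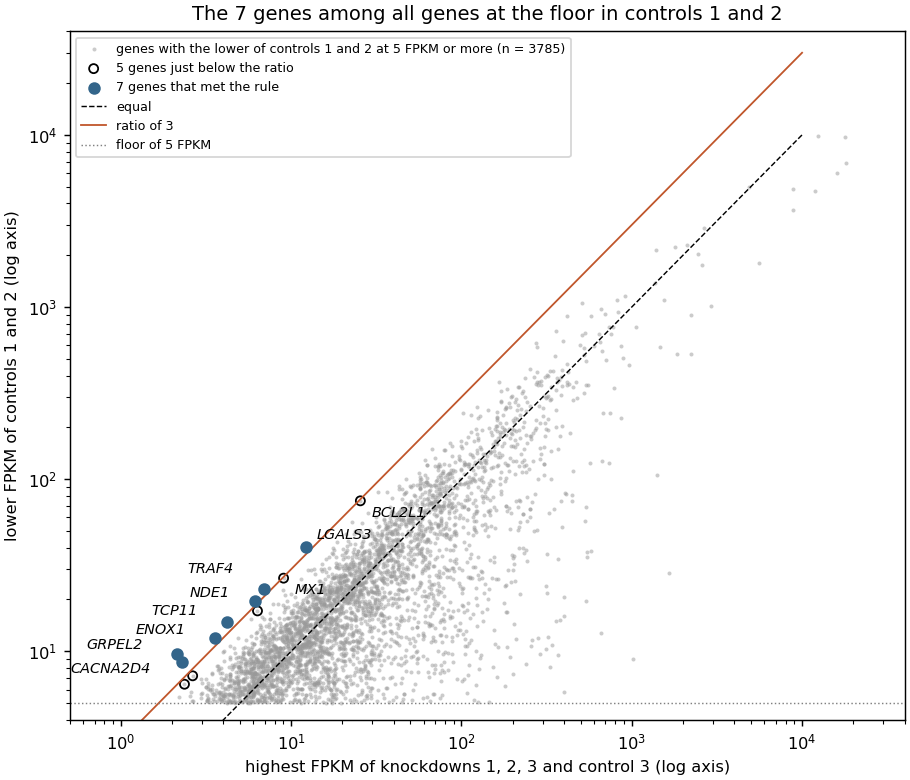
The lower FPKM of controls 1 and 2 (y axis, log) against the highest FPKM of knockdowns 1, 2, 3 and control 3 (x axis, log) for the 3785 genes that reached the floor of 5 FPKM; the red line marks the ratio of 3. The 7 genes lie along the upper left edge of the cloud just above that line, with MX1 and BCL2L1 just below it.

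Few genes lay near the 7. Among the 3785 genes the median of the same ratio was 0.95 and its 99th percentile 2.24; 93 genes reached 2 and 15 reached 2.5. Just inside the threshold were NDE1 (3.21), LGALS3 (3.33), TRAF4 (3.34), ENOX1 (3.36) and TCP11 (3.52). Just outside it were MX1 (2.95), an interferon-induced GTPase, BCL2L1 (2.94), an inhibitor of apoptosis, SALL2 (2.73), a zinc finger factor, CARM1 (2.73), an arginine methyltransferase, and TAZ (2.71). BCL2L1 was at 18.0, 25.5 and 16.5 FPKM in knockdowns 1, 2 and 3 and at 74.9, 78.3 and 12.2 FPKM in controls 1, 2 and 3, above each of the 7 in controls 1 and 2. With regard to the floor, CACNA2D4 (8.70 FPKM in the lower of controls 1 and 2) and GRPEL2 (9.62) were the nearest inside, and POFUT1 (4.27), ARPIN (3.91), HDAC3 (3.25), OLFML1 (2.71) and TULP3 (2.29) the nearest outside among genes that met the ratio. The name filter left out 1 further gene, LOC110255411, at 2.17, 0.89 and 0.55 FPKM in knockdowns 1, 2 and 3 and 36.9, 17.3 and 4.52 FPKM in controls 1, 2 and 3. With the libraries exchanged, so that the lowest of knockdowns 1, 2, 3 and control 3 had to reach 5 FPKM and 3 times the higher of controls 1 and 2, 462 genes qualified. The number of genes at that exchanged floor is not given here, so the 462 and the 7 are not compared as shares.

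None of the 7 was in any of 20 gene lists of oocyte, embryo, cell cycle, signalling, chromatin or metabolic genes. These lists hold few of the 3785 genes, at most 33 in any list (mRNA decay and translation control). The absence of the 7 is therefore not a result about them. The oocyte list had 15 of its genes among the 3785, and for 11 of these both controls 1 and 2 lay above the other 4 libraries, where this held for 45.6% of the 3785; 3 of the 15 reached a ratio of 2, where 2.46% of the 3785 did, and 0 reached 3. Neither trait was particular to the oocyte list. Controls 1 and 2 were also above for 9 of 10 genes of TGF-beta and BMP signalling. The same held for 5 of 5 genes of WNT signalling and 3 of 3 receptor tyrosine kinase genes. In each of these lists 0 reached a ratio of 2. It was reached by 2 of 26 genes of M phase and oocyte cell cycle, 1 of 9 of apoptosis and p53 and 1 of 19 histone modifiers. Controls 1 and 2 were above for 0 of 2 genes of genome activation and 0 of 5 ribosomal protein genes.

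The comparison that the study was designed for, knockdown against control, uses the same values as the rule, so nothing is read from it about these genes. All 7 were among the 10417 genes tested with limma, and 0 of 7 passed at an adjusted p of 0.05, where 0% of all tested genes passed (436 of 10417 at an unadjusted p under 0.05, among them 1 of the 7, GRPEL2). Knockdown and control values overlapped for each of the 7, while every knockdown lay below every control for 2.86% of the tested genes. The log2 changes (knockdown minus control, with 1 added to each FPKM) had a median of -1.23 and a range of -1.96 (GRPEL2) to -0.82 (LGALS3), beside a median of 0.00 over all tested genes. The value and the unadjusted call of GRPEL2 rest on a knockdown mean that includes its listed 0. Without control 3, 7 of 7 passed in the lower direction, where 7.22% of all tested genes did, and every knockdown lay below both remaining controls for 7 of 7, against 30.5%, as the rule itself requires. The median log2 change of the 7 was then -1.98.

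The gene sums hid differences between annotated transcripts. LGALS3 had 2 transcript rows, and each library carried its whole value in one of them: XM_005659974.3 held 100% in knockdowns 1 and 2 and in controls 1 and 3, and NM_001097501.2 held 100% in knockdown 3 and control 2. The choice of row therefore did not follow the level of the gene. In ENOX1, XM_021065349.1 held the whole value in knockdowns 1 and 2 and nearly all of it in control 3, at 3.50, 3.56 and 1.52 FPKM in knockdowns 1, 2 and 3 and 0, 0.42 and 2.26 FPKM in controls 1, 2 and 3. A further row of ENOX1, XM_021065351.1, was at 0, 0 and 1.78 FPKM in the knockdowns and 10.8, 11.5 and 0 FPKM in the controls. The row that led in controls 1 and 2 was thus listed at 0 in 3 of the other 4 libraries, and the row that led in those 3 was at 0 and 0.42 FPKM in controls 1 and 2. How the deposited values share reads between such rows was not tested.

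**Figure D3:**
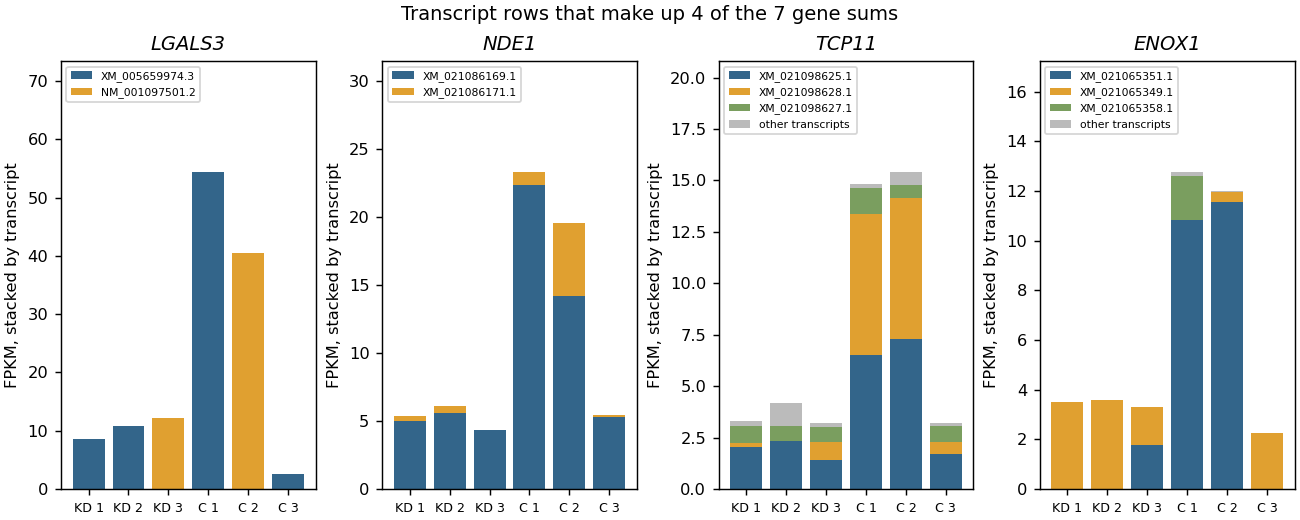
FPKM stacked by annotated transcript (y axis) in each library (x axis) for LGALS3, NDE1, TCP11 and ENOX1; colours mark up to 3 leading transcripts and grey the sum of the others. LGALS3 sits in one row or the other, and the leading row of ENOX1 differs between controls 1 and 2 and most other libraries.

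In TCP11, which has 39 transcript rows of which 9 were above 0, XM_021098625.1 was at 2.04, 2.33 and 1.42 FPKM in knockdowns 1, 2 and 3 and 6.53, 7.27 and 1.71 FPKM in controls 1, 2 and 3. The row XM_021098628.1 made up 5.97%, 0% and 26.5% of TCP11 in the knockdowns and 46.1%, 44.5% and 16.9% in the controls, so its share as well as its level was highest in controls 1 and 2. In NDE1, XM_021086169.1 made up 91.2% to 100% of the value in the knockdowns and 96.0%, 72.5% and 97.4% in controls 1, 2 and 3. GRPEL2 came almost wholly from XM_021078521.1, at 93.1% or more wherever it was above 0. TRAF4 and CACNA2D4 had 1 row each.

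The 7 genes lay on 7 chromosomes, in coordinates of Sscrofa11.1 from RefSeq: LGALS3 on chromosome 1 (184478639 to 184496155), GRPEL2 on 2 (150510520 to 150520013), NDE1 on 3 (7145094 to 7174691), CACNA2D4 on 5 (68805092 to 68899397), TCP11 on 7 (31007460 to 31161082), ENOX1 on 11 (23234764 to 23894763) and TRAF4 on 12 (44975639 to 44981650). No 2 of them were neighbours. Their spans ran from 6012 bases (TRAF4) to 660000 (ENOX1), with a median of 29598 against 40730 for the 3785 genes. The spans of 4 of the 7 overlap another annotated gene, 57.1% against 37.2% of the 3785, and without a stated strand setting such reads may be shared.

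CACNA2D4 shares 2156 bases with ADIPOR2, a receptor of adiponectin, whose values ran the other way: 12.9, 28.0 and 22.6 FPKM in knockdowns 1, 2 and 3 and 0.91, 2.22 and 26.4 FPKM in controls 1, 2 and 3. Reads in the shared stretch could be counted for either gene, and their part was not tested. The second gene within the span of CACNA2D4, LRTM2, was at 0.13 FPKM or less. GRPEL2 shares 6403 bases with the cytokine gene IL17B, at 1.07, 1.63 and 2.31 FPKM in the knockdowns and 2.09, 1.02 and 1.06 FPKM in the controls. SCUBE3, inside TCP11, was at 0.13 FPKM or less, and the non-coding LOC106505299, inside ENOX1, was listed at 0 in every library. DLGAP5, a spindle protein gene 4635 bases from LGALS3, was at 386, 376 and 385 FPKM in the knockdowns and 309, 395 and 293 FPKM in the controls. Of the other nearest genes, LOC106509605, a non-coding gene beside GRPEL2, was at 5.50, 6.02 and 5.03 FPKM in the knockdowns and 10.6, 10.1 and 4.90 FPKM in the controls. MYH11, a smooth muscle myosin gene beside NDE1, was at 0.37, 0.70 and 0.73 FPKM in the knockdowns and 1.19, 1.33 and 0.24 FPKM in the controls. Controls 1 and 2 were the highest for LOC106509605 and MYH11. Both controls lay above the other 4 libraries for 45.6% of the 3785 genes as well, so nothing is read from this about neighbours. The nearest genes of TRAF4, TCP11, ENOX1 and CACNA2D4 were at 1.03 FPKM or less in every library.

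Relatives and partners of the 7 genes were listed once the members were known. Of 48 such genes in the table, 27 reached 1 FPKM in a library. Both controls 1 and 2 lay above the other 4 libraries for 6 of the 27 and below them for 9. Among the 3785 genes the shares were 45.6% and 16.9%. The 3785 had to reach 5 FPKM in both controls 1 and 2, and the 27 only 1 FPKM in any library. These shares are therefore not like for like, and no difference is read from them. A ratio of 2 was reached by 0 of the 27 and by 2.46% of the 3785, so the count of 0 is not a result about the relatives. Among the galectins, LGALS1, a second beta-galactoside-binding lectin, was at 7.78, 11.4 and 17.4 FPKM in knockdowns 1, 2 and 3, was listed at 0 in control 1, and was at 1.71 and 57.9 FPKM in controls 2 and 3. LGALS1 was thus highest in control 3, the library where LGALS3 was lowest. LGALS8 was at 1.45, 3.33 and 1.33 FPKM in the knockdowns and 2.83, 2.96 and 0.94 FPKM in the controls.

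**Figure D4:**
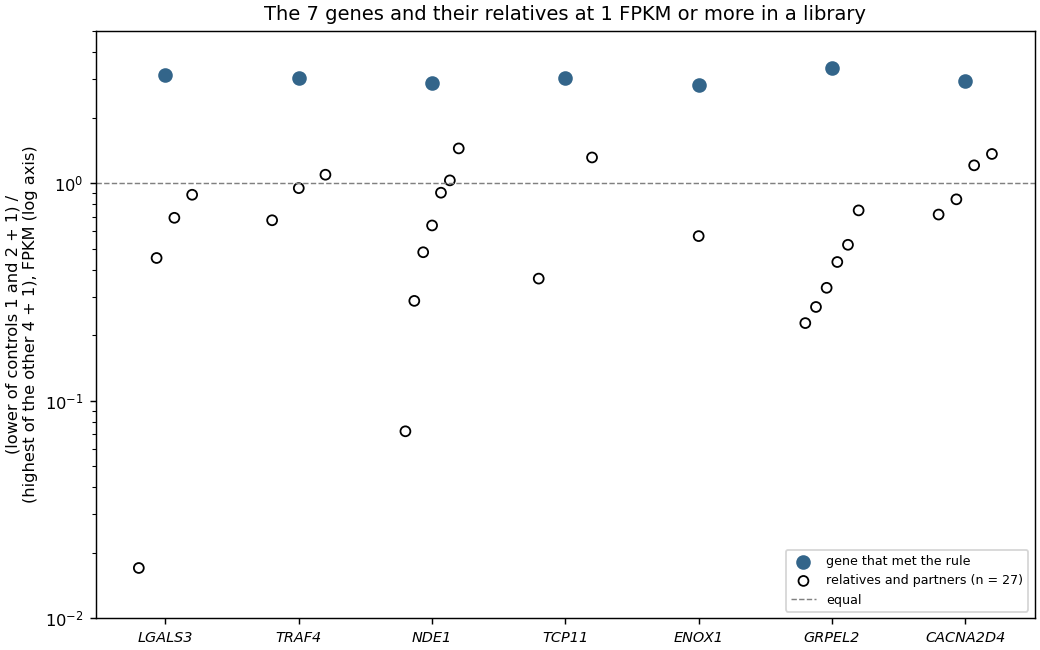
The lower FPKM of controls 1 and 2 divided by the highest of the other 4 libraries, with 1 added to each (y axis, log), for each of the 7 genes (filled) and for the 27 relatives or partners at 1 FPKM or more in a library (open), by gene (x axis). The 7 genes lie at 2.84 to 3.38, and the relatives that reached 1 FPKM in at least 1 library at 0.017 to 1.45.

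Of the TRAF family, TRAF3, TRAF6 and TRAF7 reached 1 FPKM, and none exceeded 4.06 FPKM in any library. The paralogue of NDE1, NDEL1, which also binds LIS1 and dynein, was at 6.15, 6.71 and 5.19 FPKM in the knockdowns and 11.03, 6.94 and 6.09 FPKM in the controls. Hence NDEL1 was the higher of the pair in every knockdown and in control 3, while NDE1 was the higher in controls 1 and 2. PAFAH1B1, which encodes LIS1, was at 8.19, 7.43 and 9.77 FPKM in the knockdowns and 4.18, 4.55 and 6.84 FPKM in the controls. The dynein light intermediate chains differed from each other: DYNC1LI1 was at 10.3, 9.87 and 11.9 FPKM in the knockdowns and 0.19, 0.41 and 15.4 FPKM in the controls, and DYNC1LI2 at 25.3, 34.8 and 36.4 FPKM against 53.1, 71.3 and 25.3 FPKM.

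GRPEL1, the other exchange factor of the mitochondrial HSP70, was at 16.7, 47.9 and 40.4 FPKM in the knockdowns and 30.7, 20.2 and 45.7 FPKM in the controls, above GRPEL2 in every library. HSPA9, the HSP70 that both serve, was at 48.4, 73.9 and 102 FPKM in the knockdowns and 52.6, 58.7 and 78.5 FPKM in the controls. TCP11L1, a paralogue of TCP11, was at 3.53, 6.82 and 5.14 FPKM in the knockdowns and 9.27, 10.5 and 5.42 FPKM in the controls. ENOX2 was at 2.29 FPKM or less in every library. CACNA2D1, a further alpha-2-delta subunit, was at 16.6, 11.7 and 16.4 FPKM in the knockdowns and 11.7, 15.2 and 11.4 FPKM in the controls, and no pore-forming subunit of the 9 in the table reached 1 FPKM. Controls 1 and 2 lay above the other 4 libraries for 2 of the 4 relatives of CACNA2D4 that reached 1 FPKM. These were CACNA2D2, an alpha-2-delta subunit, at 1.56, 1.21 and 0.54 FPKM in the knockdowns and 2.77, 2.09 and 0.67 FPKM in the controls, and the beta subunit gene CACNB2, at 3.88, 3.62 and 2.43 FPKM in the knockdowns and 7.01, 5.65 and 1.86 FPKM in the controls.

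**Figure D5:**
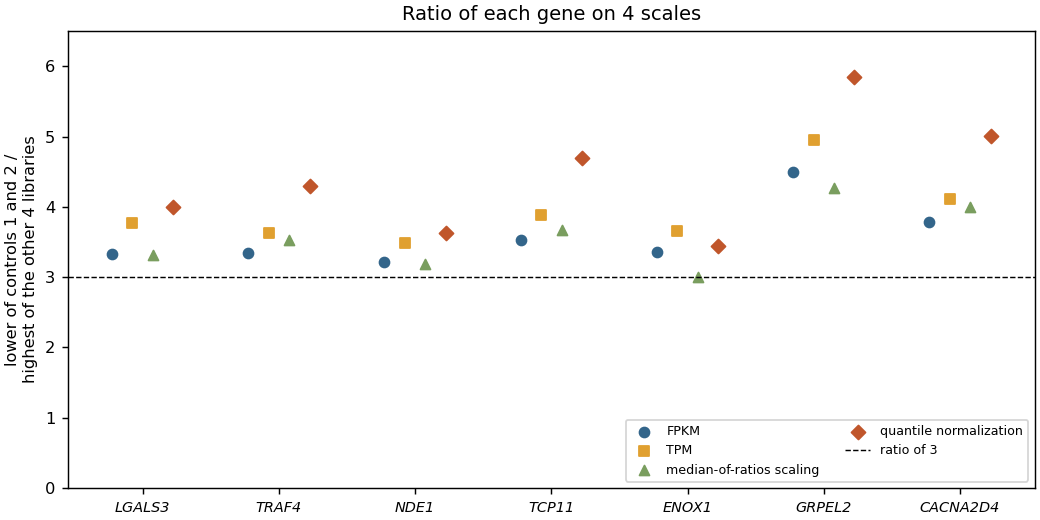
The lower of controls 1 and 2 divided by the highest of the other 4 libraries (y axis) for each of the 7 genes (x axis) on 4 scales; the dashed line marks the ratio of 3. Each gene stays above the line on each scale except ENOX1, at 2.996 after median-of-ratios scaling.

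The ratio depended on the scale of the libraries. One FPKM corresponded to 1.52, 1.85 and 1.78 TPM in knockdowns 1, 2 and 3 and to 2.04, 2.01 and 1.57 TPM in controls 1, 2 and 3, so that TPM values raised controls 1 and 2 relative to the others. On that scale the ratios of the 7 ran from 3.49 (NDE1) to 4.96 (GRPEL2). With median-of-ratios scaling they ran from 2.996 (ENOX1) to 4.27 (GRPEL2), which would leave 6 of the 7.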

How the data were processed

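Messenger RNA of 6 libraries was analysed from the table of transcript values that the authors deposited, with 81774 transcript rows. Bowtie2 2.3.5, cutadapt and StringTie 2.1.7 stand in the submitters' processing notes with the build Sscrofa11.1; the sources used here state neither their roles nor how strand and multiply mapped reads were handled. Per the file headers, each library has FPKM (scaled by the authors for transcript length and mapped fragments), TPM (rescaled by the authors to a common total) and coverage, a deposited signal of mean read depth. Another 9 value columns had no matching sample title and were left out. Column names with the prefix SL were matched to the titles with siL. LncT itself could not be looked up by that name, so its level was not checked.

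FPKM was summed per gene name. For the fit over the whole table, 1758 rows with a number as name took their identifier and 129 with a date took the symbol of their RefSeq accession. The 10417 genes that averaged 1 FPKM or more were tested with limma 3.58.1 in R 4.3.3, on log2 values after adding 1 to FPKM. The fit used a trended prior variance and a term for group, and its two-sided p-values were adjusted by Benjamini-Hochberg. The fit was also run on simulated data whose spread came from the knockdowns alone. That run therefore does not cover the wider spread of the controls. Tables were made with pandas 2.3.3 and numpy 2.4.6 under Python 3.11.15, and plots with matplotlib 3.10.9. Names and coordinates came from the RefSeq table of Sscrofa11.1, which held each of the 7 genes. No sequence is printed here.

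The genes and gene lists were chosen with earlier results of these data known, and the relatives after the members were known. Genes were named as the highest by level and by ratio, list members, threshold neighbours and neighbours in the annotation; transcripts, overlapping genes, relatives and LOC110255411 were added after values were seen. Alternatives were other floors, ratios, scales, name filters, pseudocounts and expression filters, the replicate block and leaving out each library.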

Additional observations from a re-analysis of the deposited data

How the results depend on the processing

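The number of genes that met the rule depended on its settings. It was 12 with a floor of 2 FPKM, 93 with a ratio of 2, 0 with a ratio of 5, 4 with the ratio on FPKM + 1, 16 with TPM, 21 after quantile normalization and 36 with single transcript rows. All 7 genes were among those found with TPM and after quantile normalization, while 4 remained with FPKM + 1 and 5 with single rows. A lower floor or ratio keeps all 7 by construction. With 1 library left out the number ran from 7 (without control 3) to 43 (without knockdown 2). It was 42 without control 2, 21 without control 1 and 11 without knockdown 3. All 7 were kept each time by construction, because leaving out a library can only loosen the rule. The count of genes called between knockdown and control was 0 in each alternative except without control 3, so leaving out 1 library gave 0 to 2854. The median log2 change of the 7 stayed below 0 throughout, at -0.82 with a pseudocount of 5 and -1.42 with TPM, and at -1.98 to -0.79 with 1 library left out. The rule had set every knockdown below controls 1 and 2 for these genes. The sign was thus largely given by the selection, and nothing is read from it. Deviations of same-numbered libraries correlated at 0.0849, 0.0627 and 0.226, and not every library correlated best with its own number. Because control 3 stood apart from controls 1 and 2, these correlations cannot decide whether the libraries were paired. The numbers were not taken as pairs in the main fit. With the replicate block 0 genes were called and the median was -1.23. The read counts behind each value are unknown, and GRPEL2 had a coverage of 0 in knockdown 1.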
